A study of Arabidopsis thaliana with 4 samples.

Results

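The HD-ZIP class IV genes encode transcription factors that join a homeodomain and a leucine zipper to a START domain, a fold that binds lipids in other proteins. Most are expressed in the outermost cell layer of the plant, the L1, where they specify epidermal cells and the hairs, stomata and cuticle that these cells make. ATML1 and PDF2 specify the epidermis itself, and plants that lack both cannot keep an ordered epidermis. Several members, among them PDF2 and HDG1, also act in shaping floral organs. The 10 genes described here were chosen by locus identifier: ATML1 (AT4G21750), PDF2 (AT4G04890), HDG1 (AT3G61150), HDG2 (AT1G05230), HDG3 (AT2G32370), HDG5 (AT5G46880), HDG11 (AT1G73360), HDG12 (AT1G17920), ANL2 (AT4G00730) and GL2 (AT1G79840). All 10 were found among the 33602 genes of the count files.

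The counts came from flowers of Arabidopsis thaliana, ecotype Col-0, in which organs are shed at the abscission zone. Residuum cells (RECs) are the abscission zone cells of the receptacle, and secession cells (SECs) are those of the separated floral organs. All 4 libraries, 2 of RECs and 2 of SECs, came from ebp1 mutants that carried proQRT2::nlsGFP–GUS, a nuclear GFP reporter driven by the promoter of QRT2, a polygalacturonase gene active in abscission zone cells. Cells were sorted on that fluorescence, so a library holds whatever cells expressed the reporter, and wild-type cells were not analysed here. The genotype labels number the promoter differently in each sample, and QRT2 was taken from the description of the series. The labels state neither the age of the plants nor whether plants were pooled.

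The REC libraries held 12191718 and 14338470 counts in genes, and the SEC libraries held 13737549 and 16102115. Levels are normalised counts (CPM) on TMM-scaled library sizes, given for replicate 1 and then replicate 2 of each group. Log2 fold changes are REC minus SEC, so a negative value is higher in SECs, with a standard error (SE). Adjusted p-values come from the quasi-likelihood test of edgeR over 18384 genes. The labels do not say whether replicates stem from different plants, and the p-values then reflect no more than the spread of these libraries, which may be technical. The SEC pair differed far more within itself than the REC pair: per degree of freedom, the chi-square was 70.8 for the SEC pair and 5.39 for the REC pair. SEC replicate 1 was low in long transcripts. Its median log2 ratio to the other SEC library was 0.67 for tested genes under 1000 nt and −0.82 for the 1761 tested genes between 2863 and 3972 nt, the range of the 10 members. All 8 markers of the abscission zone were read, QRT2 among them at 459 to 694 CPM. The 3 markers IDA, ADPG2 and BP passed as higher in SECs, beside 2.18% of all genes tested. HAE went the other way without passing, at 440 and 459 CPM across RECs against 160 and 355 CPM across SECs. HSL2 also had a positive log2 fold change (0.35), and the other 6 were negative. The adjusted p of IDA ran from 7.98e-12 to 0.113 over the alternatives, the highest by limma voom, where it did not pass. Of 4 mesophyll markers RBCS2B, CAB3 and CA1 passed the test as higher in RECs, beside 0.495% of all genes tested. The list summed to 1750 to 2424 CPM over RECs and 1260 to 1894 CPM over SECs. Most of these sums came from RBCS1A, at 1679 and 1340 CPM across RECs against 1845 and 1212 CPM across SECs (log2 fold change −0.02). Of 7 xylem markers 4 could be tested, and MC9 passed as higher in SECs, beside 2.18% of all genes tested. The list summed to 6.14 to 8.24 CPM over RECs and 51 to 84.4 CPM over SECs. Most of the SEC sums came from MC9, at 48.6 and 80.9 CPM. Of the 4 xylem markers tested, 2 had positive and 2 had negative log2 fold changes. Markers of guard and myrosin cells summed to at most 3.2 CPM in any library and those of nectary to at most 1.31 CPM, with HT1, TGG2, CRC and SWEET9 at 0 counts in all 4. Phloem markers summed to 12.2 to 15.5 CPM over RECs and 1.93 to 3.32 CPM over SECs, with APL at 0. Pollen and tapetum markers summed to between 17.4 and 22.7 CPM in every library, most of it from TPD1. The part of such cells in the results below was not tested. In sorted bulk samples fewer cells of a type and less RNA per cell cannot be told apart.

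PDF2 and ATML1 are the closest pair of the family, so whether reads can be assigned to one or the other bears on everything that follows. Their coding sequences, read from the RefSeq annotation of TAIR10.1, were identical at 83.3% of 2217 aligned positions. HDG11 and HDG12 came next among the members, at 78.9%, and HDG1 and ANL2 stood at 67.4%. The longest stretch that PDF2 and ATML1 share without a difference is 28 bases, given here in capitals with 30 bases of each gene's own coding sequence on either side. The stretches run from coding base 1421 to 1508 in PDF2 (minus strand of chromosome 4) and from 1448 to 1535 in ATML1 (plus strand of chromosome 4).
PDF2: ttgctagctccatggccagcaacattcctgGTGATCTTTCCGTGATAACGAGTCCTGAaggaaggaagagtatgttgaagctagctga
ATML1: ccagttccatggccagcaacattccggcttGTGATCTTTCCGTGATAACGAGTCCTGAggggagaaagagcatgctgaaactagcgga
The flanks differ within a few bases of the shared run on both sides. Every run of 50 bases in the longest transcript of PDF2, 3237 in all, occurred at most once in the genome, and the same held for all 3923 in ATML1 and for the transcripts of the other 8 members. Reads of that length without errors can thus be told apart between members.

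A short element that HD-ZIP IV proteins bind, the L1 box, was searched for as TAAATGCA and TAAATGTA on both strands, from 250 bases before to 50 after each gene's annotated start. It was found in 2 of the 10 members, HDG2 and ANL2, and in 5.1% of the windows of 27443 protein-coding genes. These 2 stretches are shown because the members' own promoters are among the places where family members can act; the L1 box is in capitals. That of HDG2 lies at chr1:1518974-1519033 and that of ANL2 at chr4:304635-304694 (TAIR10.1, both shown 5′ to 3′ on the minus strand, the strand of both genes).
HDG2: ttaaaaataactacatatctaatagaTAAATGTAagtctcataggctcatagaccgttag
ANL2: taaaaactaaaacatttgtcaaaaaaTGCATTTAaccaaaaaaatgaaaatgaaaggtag
In HDG2 the element begins at position −107 from the start in the direction of the gene, and in ANL2 at −56 in the opposite orientation. With 1000 bases before the start, ATML1 also held one, at −509, making 3 of 10 members against 16.3% of all such windows. A match of these letters is a description of the sequence, not a site of binding.

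PDF2 was the member that passed the test between the sides. RECs held 126 and 118 counts of it and SECs 391 and 491, or 9.89 and 7.87 CPM against 30.2 and 31.5 CPM. Both SEC libraries stood above both REC libraries, and the SEC values lay close together. PDF2 was 3.47-fold higher in SECs, a log2 fold change of −1.80 with an SE of 0.27 (adjusted p = 0.0431 by edgeR). Of the 9 members that could be tested it alone passed as higher in SECs, beside 2.18% of all genes tested, and 0 passed as higher in RECs, beside 0.495%. Among the 1761 tested genes of the members' length range, 0.852% were called higher in SECs. At an unadjusted p under 0.05 PDF2 was also the only member, beside 23.6% of all genes tested. With the length trend of each library removed, PDF2 was −2.10 (adjusted p = 0.0188), in a fit that called 9.3% of all genes higher in SECs, and leaving out each library in turn gave values from −1.94 to −1.63. Adjusted p rose to 0.3 when REC replicate 1 was left out and to 0.399 when REC replicate 2 was, fits in which only the SEC pair gives the spread. Upper-quartile normalization put it at 0.0524, just above the threshold of 0.05.

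**Figure D1:**
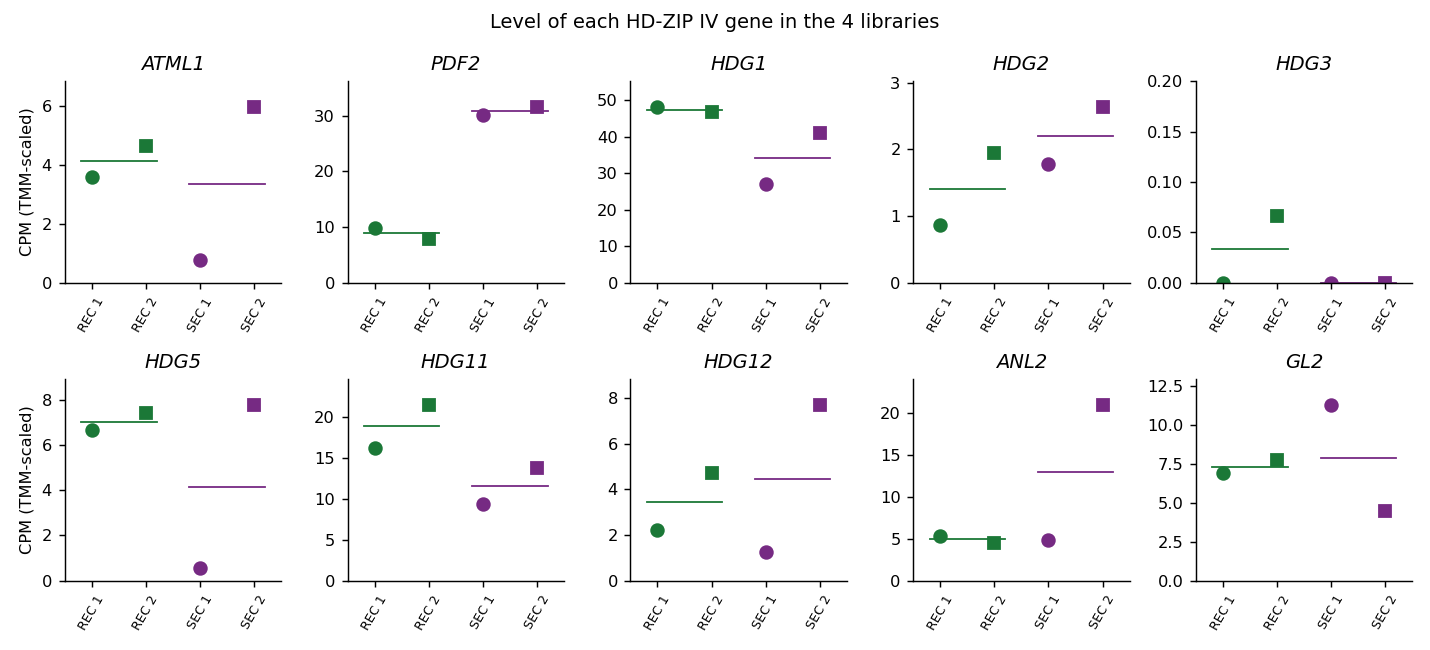
Level of each of the 10 genes in CPM on TMM-scaled library sizes (y axis, a scale of its own in each panel) in the 4 libraries (x axis; circles replicate 1, squares replicate 2, lines group means). PDF2 stands near 30 CPM in both SEC libraries and below 10 CPM in both REC libraries, while ATML1, HDG1, HDG2, HDG5, HDG12, ANL2 and GL2 differ more between the SEC libraries than the group means do.

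ATML1, its partner in specifying the epidermis, was lower than PDF2 in every library. RECs held 46 and 70 counts of it and SECs 10 and 93, or 3.61 and 4.67 CPM against 0.772 and 5.97 CPM. One SEC library held the lowest value of the 4 and the other the highest, so the groups overlapped. ATML1 did not pass the test (log2 fold change 0.29, SE 0.93, adjusted p = 0.886). Leaving out SEC replicate 1 put it at −0.52 and leaving out SEC replicate 2 at 2.42, so its direction depends on which SEC library is used. Per length of transcript (CPM per kb), PDF2 made up 76.8% and 67.1% of the sum of the pair in RECs and 97.9% and 86.5% in SECs. Of the raw counts of the pair PDF2 took 73.3% (exact 95% interval 66 to 79.7) and 62.8% (55.4 to 69.7) in RECs, and 97.5% (95.5 to 98.8) and 84.1% (80.9 to 87) in SECs. The intervals of the REC and SEC libraries did not overlap, but they cover counting error only, since reads amplified without molecular identifiers are not independent molecules. The mean share per length was 71.9 ± 6.88% in RECs and 92.2 ± 8.11% in SECs (SD, n = 2). The two-sided exact permutation test over samples gave p = 0.333, which is the smallest that 2 libraries against 2 allow.

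HDG1 and HDG11 were the most abundant members in RECs. HDG1, which acts with a partner protein on cuticle genes, was at 48.1 and 46.8 CPM across RECs against 27.1 and 41.2 CPM across SECs. HDG11, whose loss gives trichomes with extra branches and whose overexpression gives drought tolerance, was at 16.3 and 21.5 CPM across RECs against 9.42 and 13.8 CPM across SECs. In both genes each REC library stood above each SEC library, and SEC replicate 1 was the lowest. Neither difference passed the test, with log2 fold changes of 0.47 (SE 0.28, adjusted p = 0.377) for HDG1 and 0.70 (SE 0.33, adjusted p = 0.281) for HDG11. Leaving out SEC replicate 2 put them at 0.82 and 1.02, past the threshold, but that fit called 29.4% of all genes higher in RECs. Leaving out SEC replicate 1 put them at 0.20 and 0.46, not past it. Both fits take the spread from the REC pair. With PDF2, these were the 3 of 9 tested members whose groups did not overlap, 2 with RECs above and 1 with SECs above. Among all genes tested 58% did not overlap, 29.8% with RECs above and 28.2% with SECs above, so the members' count lies below the background.

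HDG12, which acts with HDG11 in limiting trichome branching, and HDG5, which acts with PDF2 in floral organ development, were read at low levels. HDG12 was at 2.2 and 4.74 CPM across RECs against 1.24 and 7.7 CPM across SECs (log2 fold change −0.37, SE 0.93, adjusted p = 0.851). HDG5 was at 6.67 and 7.41 CPM across RECs against 0.54 and 7.77 CPM across SECs (log2 fold change 0.75, SE 1.06, adjusted p = 0.723). In both genes SEC replicate 1 was the lowest library and SEC replicate 2 the highest, and the groups overlapped. For HDG5 that is 7 counts against 121. Leaving out SEC replicate 1 put HDG12 at −1.14 and HDG5 at −0.14, and leaving out SEC replicate 2 put them at 1.50 and 3.69. HDG2, which promotes stomatal fate in the epidermis, had a lower mean level than both in each group, though in SEC replicate 1 it stood above them. RECs held 11 and 29 counts of HDG2 and SECs 23 and 41. HDG2 stood at a log2 fold change of −0.65 (SE 0.75, adjusted p = 0.654), and the groups overlapped. In the RefSeq annotation HDG2 overlaps AT1G04353 over 1667 bases and HDG12 overlaps AT1G05357 over 280 bases, both on the opposite strand, so reads there are uncertain. Those 2 genes were not analysed here. HDG3, which is active in the endosperm of seeds, had a single count, in REC replicate 2, and 0 in REC replicate 1 and both SEC libraries, where 3 counts would be 0.236, 0.232 and 0.193 CPM. It was the 1 member too low to test.

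ANL2 controls the build-up of anthocyanin below the leaf epidermis and cell arrangement in the root. RECs held 67 and 68 counts of it and SECs 62 and 326, or 5.26 and 4.54 CPM against 4.79 and 20.9 CPM. SEC replicate 2 stood far above the other 3 libraries, which lay together. The log2 fold change of ANL2 was −1.39 (SE 0.72, adjusted p = 0.314). Leaving out SEC replicate 1 put it at −2.10 and past the threshold (adjusted p = 4.13e-05), in a fit that called 20% of all genes higher in SECs, and leaving out SEC replicate 2 put it at 0.04. GL2 drives trichome growth, keeps root epidermal cells hairless and acts in making seed mucilage. RECs held 88 and 116 counts of it and SECs 146 and 70, or 6.91 and 7.74 CPM against 11.3 and 4.49 CPM. SEC replicate 1 was the highest library and SEC replicate 2 the lowest, whereas in the other 8 tested members SEC replicate 1 lay below SEC replicate 2. The log2 fold change of GL2 was −0.10 (SE 0.52, adjusted p = 0.929), and it ran from 0.71 when SEC replicate 1 was left out to −0.61 when SEC replicate 2 was. GL2 overlaps AT1G79850 on the opposite strand over 198 bases, and the library kit does not mark strand, so reads there are uncertain. It also overlaps AT1G09927, on its own strand, over 155 bases, and that gene was not analysed here. AT1G79850 was at 31.6 and 25.9 CPM across RECs against 39.4 and 26.4 CPM across SECs, and was also highest in SEC replicate 1.

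**Figure D2:**
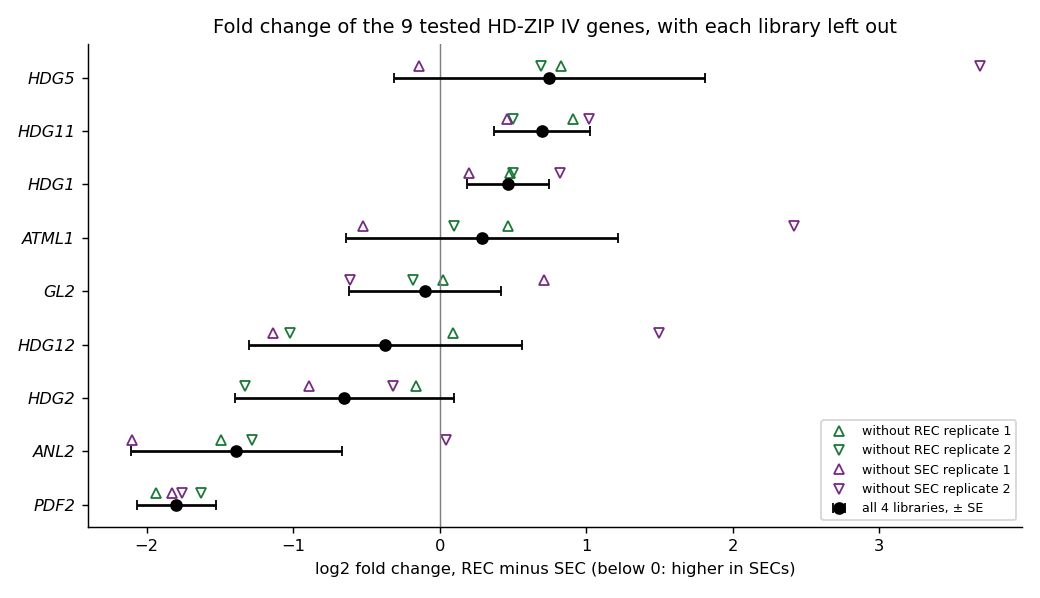
Log2 fold change, REC minus SEC, of the 9 tested genes (filled points with SE from all 4 libraries), and the value with each library left out (open triangles). The values of PDF2 stay between −1.94 and −1.63, and those of ATML1, HDG5, HDG12, ANL2 and GL2 fall on both sides of 0.

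The spread between the SEC libraries differed among members of nearly the same length. As log2 values with 2 counts added, SEC replicate 1 minus SEC replicate 2 was −0.06 for PDF2 (3286 nt), −0.60 for HDG1 (3145 nt), −0.53 for HDG2 (3644 nt) and −0.54 for HDG11 (3506 nt). It was −2.10 for ANL2 (3398 nt), −2.51 for HDG12 (3195 nt), −2.74 for ATML1 (3972 nt) and −3.53 for HDG5 (3242 nt), and 1.30 for GL2 (2895 nt). The median over the 1761 tested genes of that length range was −0.82, with 5% at or below −3.23 and 5% above 0.78. HDG5 and GL2 thus lay outside these 2 limits, with 3.86% and 96.7% of these genes at or below their values. PDF2 had 82.3% of these genes at or below its value. In the REC pair the ratios of the same genes ran from −1.06 for HDG12 to 0.32 for PDF2. Removing the length trend left the log2 fold changes of ATML1 at 0.28, HDG5 at 0.77, HDG12 at −0.40 and ANL2 at −1.46, close to their values without it. It moved HDG1 to 0.26, HDG11 to 0.44, HDG2 to −0.93 and GL2 to −0.47, and none of these 8 passed the test.

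**Figure D3:**
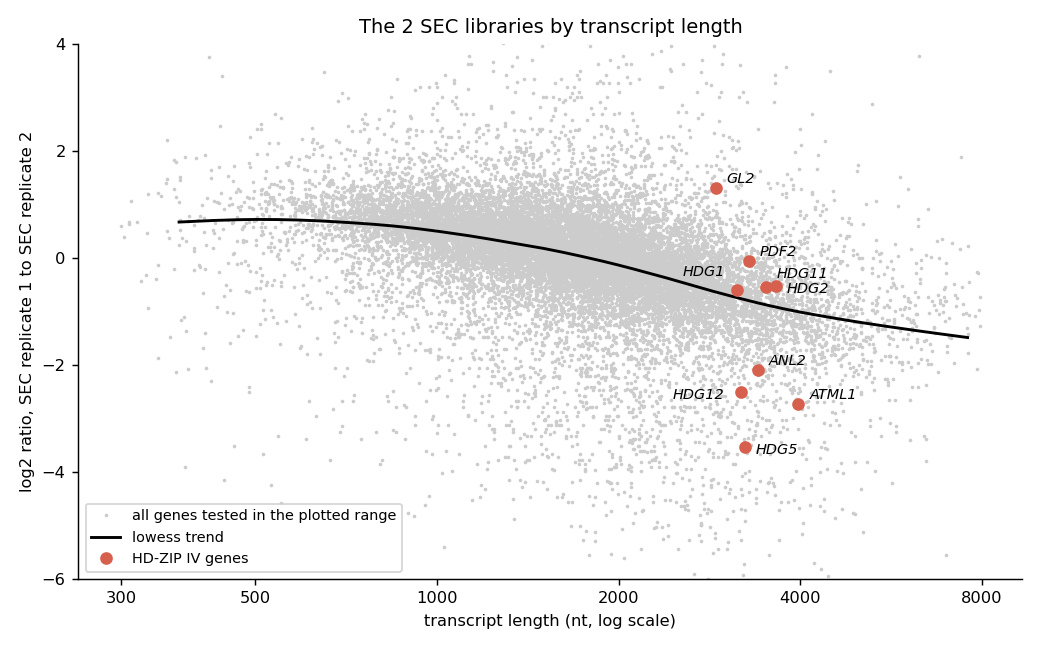
Log2 value of SEC replicate 1 minus that of SEC replicate 2 (y axis) against transcript length in nt (x axis, log scale) for the genes tested (grey), their lowess trend (line) and the 9 tested HD-ZIP IV genes (red). The trend falls with length, and the 9 genes, all within 2863 to 3972 nt, spread from 1.30 (GL2) to −3.53 (HDG5) around it.

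The 10 members together took 1271 and 1608 counts of RECs and 1128 and 2119 of SECs, or 99.8 and 107 CPM against 87.1 and 136 CPM, so their summed level in the REC libraries lay between those of the SEC libraries. Their make-up was compared per length of transcript. HDG1 took 49.6% and 45.2% of the summed CPM per kb in RECs and 31.9% and 31.7% in SECs. PDF2 took 9.78% and 7.28% in RECs and 34% and 23.2% in SECs. HDG11 took 15.1% and 18.6% in RECs and 9.94% and 9.51% in SECs. The shares of the groups did not overlap for these 3 genes, nor for ANL2 (5.03% and 4.06% in RECs, 5.21% and 14.9% in SECs), HDG5 (6.69% and 6.94% against 0.617% and 5.79%) and HDG2 (0.77% and 1.61% against 1.8% and 1.75%). In CPM the groups of ANL2, HDG5 and HDG2 did overlap. In CPM 58% of all genes tested did not overlap, and no such background was computed for shares within a family. Shares within a library do not depend on how libraries are scaled, but each rises as another falls, and they were not tested.

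In the order of levels per length, RECs had HDG1 at 15.1 CPM per kb, then HDG11 at 5.39, PDF2 at 2.7, GL2 at 2.53, HDG5 at 2.17, ANL2 at 1.44, HDG12 at 1.09, ATML1 at 1.04, HDG2 at 0.384 and HDG3 at 0.0117. The neighbours PDF2 and GL2, ANL2 and HDG12, and HDG12 and ATML1 overlapped between their 2 libraries. In SECs the order of levels began with HDG1 at 10.9 CPM per kb, PDF2 at 9.39, ANL2 at 3.78, HDG11 at 3.31 and GL2 at 2.72. HDG1 and PDF2 overlapped there, with 8.62 and 13.1 CPM per kb for HDG1 around the 9.19 and 9.59 of PDF2. From ANL2 downward each neighbour overlapped the next as far as HDG2. PDF2 was thus below HDG1 and HDG11 in RECs, and within the range of HDG1 in SECs.

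**Figure D4:**
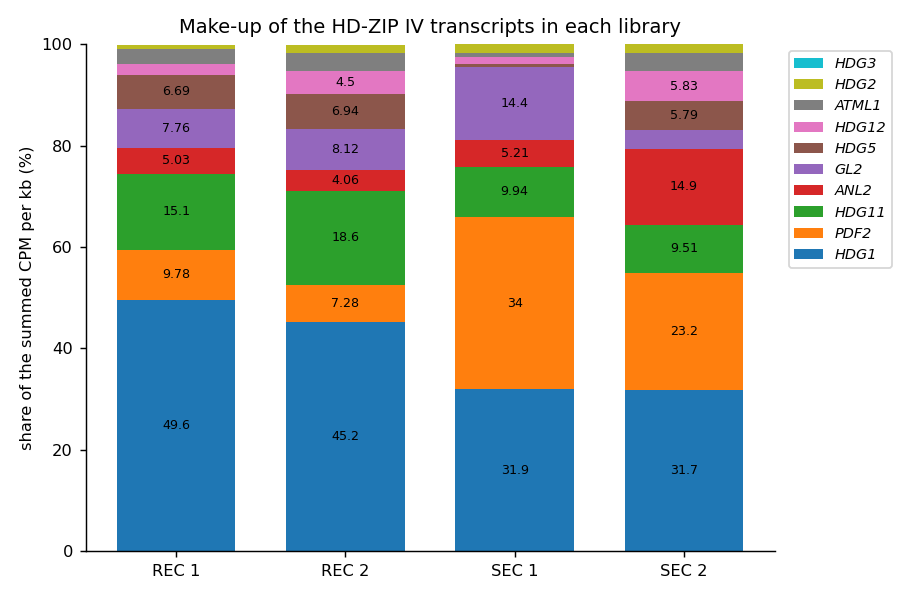
Share of each of the 10 genes in their summed CPM per kb of transcript (y axis, percent) in each library (bars; shares over 4% are printed). PDF2 takes 34% and 23.2% of the SEC libraries against 9.78% and 7.28% of the REC libraries, and HDG1 takes the largest share in each library other than SEC replicate 1.

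Over the 4 libraries, the genes whose log2 CPM ran most like that of PDF2 after each gene's mean was taken off were MLO12, AT1G65690 and AGK2, with root mean square distances of 0.0332, 0.0611 and 0.0698. MLO12, of the MLO family, was at 24.4 and 19.6 CPM across RECs against 72.8 and 73.2 CPM across SECs. AGK2, for a guanylate kinase, was at 46.2 and 40.2 CPM across RECs against 157 and 148 CPM across SECs. Of 11587 genes compared 147 lay within a distance of 0.25, so likeness over 4 libraries picks out many genes.

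The other 6 genes of the class were lower than most of the 10. HDG7 had 34 and 48 counts across RECs against 0 and 29 across SECs, and HDG8 had 20 and 11 across RECs against 0 and 13 across SECs. Neither passed the test (adjusted p = 0.561 and 0.63). Both were at 0 in SEC replicate 1, where 3 counts would be 0.232 CPM. HDG7 overlaps 3 genes on the opposite strand, so its reads are uncertain. HDG4 had 1 count and HDG10 had 3 counts in all, each in 1 library. FWA, which is silenced by DNA methylation in adult plants, and HDG9 had 0 of 56369852 counts, which allows up to 0.0532 CPM.

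The sister class HD-ZIP III also has a homeodomain, a leucine zipper and a START domain. It sets the upper side of leaves and the pattern of the vasculature. All 4 of its tested members had positive values. Their median log2 fold change was 2.14, beside −0.10 for the HD-ZIP IV members and 0.02 for all genes tested. Without SEC replicate 1 these medians were 1.58 for HD-ZIP III, −0.52 for the HD-ZIP IV members and 0.02 for all genes tested, and with the length trend removed they were 1.98, −0.40 and 0.02. REV was at 17.5 and 16.2 CPM across RECs against 1.85 and 5.39 CPM across SECs (log2 fold change 2.21, SE 0.55, adjusted p = 0.0933). PHV was at 18.3 and 16.9 CPM across RECs against 3.01 and 5.33 CPM across SECs (log2 fold change 2.07, SE 0.39, adjusted p = 0.0611). The REC libraries of both stood above the SEC libraries, and neither passed the test. Both passed by DESeq2 (adjusted p = 0.00594 and 0.0014) and with the length trend removed (0.0215 and 0.0162). These fits called 763 and 854 of all genes higher in RECs, against 91 with the main settings. Neither gene passed by limma voom (adjusted p = 0.0809 and 0.0613) or with upper-quartile normalization (0.0863 and 0.0603 by edgeR). PHB had 16 and 47 counts across RECs against 0 and 12 across SECs, and CNA overlapped between the groups, at 9.5 and 15.1 CPM against 7.03 and 15.9 CPM. ATHB8, a gene of the forming vasculature, had 0 counts in all 4 libraries. REV, PHV, PHB, CNA and the genes of the next paragraphs that did not pass were named after their values were seen.

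Of 19 listed genes of the epidermal layer 15 could be tested and 0 passed in either direction, beside 2.67% of all genes tested. Their median log2 fold change was 0.44, with 9 positive and 6 negative values, and it was 0.16 without SEC replicate 1 and 0.20 with the length trend removed. In 6 of the 15 both REC libraries stood above both SEC libraries, and in 4, LGO, RPK1, MYB106 and AT2G33510, both SEC libraries stood above. Among all genes tested these shares were 29.8% and 28.2%. The 2 nearest the threshold were higher in RECs in each library. BDG1, for a protein of cuticle formation, was at 20.3 and 23.7 CPM across RECs against 7.26 and 7.13 CPM across SECs (log2 fold change 1.61, SE 0.28, adjusted p = 0.0544). ALE2, for a receptor kinase of epidermal surface formation, was at 26.1 and 26 CPM across RECs against 8.96 and 10 CPM across SECs (log2 fold change 1.45, SE 0.26, adjusted p = 0.056). Both passed by DESeq2 (adjusted p = 0.00233 and 0.00322), which called 763 genes higher in RECs against 91 with the main settings. Neither passed by limma voom (adjusted p = 0.0595 and 0.0606) or with upper-quartile normalization (0.0547 and 0.0549 by edgeR). With the length trend removed BDG1 passed (adjusted p = 0.0179 by edgeR) and ALE2 did not (0.0524). LGO, a cell cycle inhibitor that acts in giant cell formation in the sepal epidermis, was at 0.864 and 0.4 CPM across RECs against 4.63 and 2.38 CPM across SECs (log2 fold change −2.46, SE 0.79, adjusted p = 0.144). LTP1, for a lipid transfer protein, was the most abundant gene of the list, at 1070 and 974 CPM across RECs against 1471 and 913 CPM across SECs, and its groups overlapped. FDH and CER5, an enzyme of cuticle lipids and a wax exporter, are expressed in the L1 and were abundant. FDH was at 101 and 107 CPM across RECs against 57.1 and 96.1 CPM across SECs, and CER5 was at 155 and 160 CPM across RECs against 98.4 and 122 CPM across SECs. Their adjusted p values by edgeR were 0.433 and 0.212. PDF1, an L1 gene that HD-ZIP IV factors activate through an L1 box, had 22 and 42 counts across RECs against 0 and 23 across SECs.

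Many regulators and partners of the family's other roles were low, but several were not. Of 20 trichome and root hair genes, 10 could be tested and 0 passed, with a median log2 fold change of 0.03. Beside this list and those below, 2.67% of all genes tested passed in either direction. GL1, a MYB gene needed for trichomes, had 2 counts in REC replicate 1 and 2 in SEC replicate 2, and 0 in the other libraries. TTG1, a WD40 gene of the same pathway with wider roles, was at 99.8 and 94.9 CPM across RECs against 93.6 and 108 CPM across SECs. MUM4 was at 116 and 134 CPM across RECs against 122 and 136 CPM across SECs. Of 15 genes of the stomatal lineage 5 could be tested and 0 passed, with a median of 0.51, and SPCH, FAMA, EPF1 and BASL had 0 counts in every library. All 5 DELLA genes, for repressors of gibberellin responses that bind ATML1 and PDF2, could be tested. Of these 0 passed, 4 had positive values, and the median was 0.96, or 0.46 without SEC replicate 1. Among the tested genes of the trichome and stomatal lists, GL3 and SDD1 had 0 counts in both SEC libraries, and putting each at its bound left both medians as they were.

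**Figure D5:**
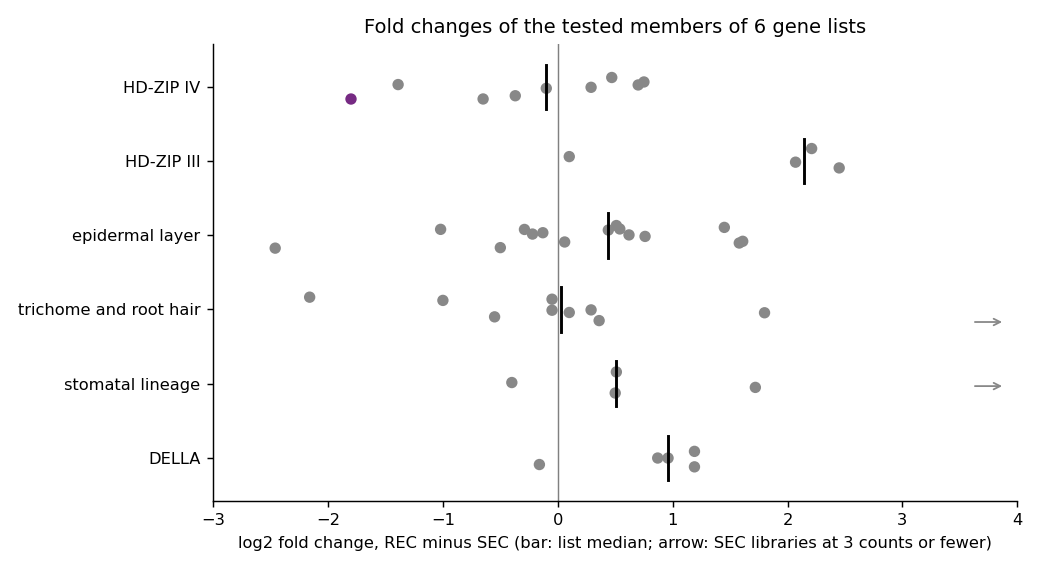
Log2 fold change, REC minus SEC (x axis), of the tested members of 6 gene lists (points; bars are list medians; arrows are genes whose SEC libraries together had 3 counts or fewer). PDF2 is the point in purple, the only one that passed the test, and the HD-ZIP III median of 2.14 lies farthest from 0.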

How the data were processed

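The deposited files hold raw counts of reads per gene, 1 file per sample, as the authors' counter wrote them. Per the submitters' processing notes, TopHat2 2.0.9 and HTSeq 0.6.1 were among the tools and TAIR10 was the build, with bcl2fastq, FastQC, Trimmomatic 0.32.3, Picard and DESeq2 also named. Their annotation and strand setting for counting are not stated. Per the labels, cDNA was made from polyA RNA with SMART-Seq V4 and 18 amplification cycles, and libraries with TruSeq v2, which does not mark strand.

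The lines that name no gene stayed out. Records in no gene were 46.81% to 47.74% of all, and records with several alignments, 5.64% to 7.48%, are not in the counts. The count test was edgeR 4.0.16 in R 4.3.3 (glmQLFit, glmQLFTest, two-sided) after TMM and filterByExpr, with group as the only term and Benjamini-Hochberg adjustment over 18384 genes at a threshold of 0.05. The SE was taken as |log2 fold change| over the square root of F. Alternatives were DESeq2 1.42.0, limma 3.58.1 (voom), upper-quartile normalization, other filters, a lowess length trend as offsets, each library left out, and a replicate block. The main fit, DESeq2, limma voom and the length offsets were run on counts simulated with the same dispersion for all genes and no length trend. Such a run cannot show how these steps behave on the uneven SEC pair.

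Lengths (longest transcript), positions and sequences came from RefSeq on TAIR10.1; the files hold no coordinates. The members and the gene lists were chosen with earlier results of these data known. Named were all members, the rest of the class, called members of each list up to 6, and the 3 genes nearest in pattern to each called member among genes averaging 10 CPM or more.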

Additional observations from a re-analysis of the deposited data

How the results depend on the processing

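With the main settings 91 genes were higher in RECs and 400 in SECs. These counts were 763 and 1574 by DESeq2, 280 and 836 with no filter on low counts, 854 and 1710 with the length trend removed, and 254 higher in SECs with upper-quartile normalization. The replicate block gave 526 and 1161, and with the length trend removed as well 835 and 1687. Same-numbered libraries deviated together with a correlation of 0.0384 over genes, so the numbers were not taken as pairs; with the block PDF2 was −1.80 and stayed past the threshold. Leaving out 1 library gave 28 to 5630 and 86 to 4991 calls, because 1 pair then sets the spread.

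Among the HD-ZIP IV genes, calls ran from 0 to 4 higher in RECs and from 0 to 2 higher in SECs when 1 library was left out, and 0 were higher in SECs with upper-quartile normalization, where PDF2 was −1.70. Leaving out REC replicate 1 gave PDF2 −1.94 and leaving out REC replicate 2 gave −1.63, neither past the threshold. Over the fits that leave out 1 library, the sign turned for ATML1 (−0.52 to 2.42), HDG5 (−0.14 to 3.69), HDG12 (−1.14 to 1.50), ANL2 (−2.10 to 0.04), GL2 (−0.61 to 0.71) and CNA (−0.36 to 0.82). It also turned for HDG12 (0.01) and GL2 (0.03) with the block, for GL2 by limma voom (0.08), and for CNA with the length trend removed (−0.09) and with the block as well (−0.11). Of 108 values of members under the alternatives, 90 kept direction and side of the threshold. The cause of these turns was not tested.

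In the other 6 lists together 0 genes were called in either direction with the main settings, beside 2.67% of all genes tested. The genes tested with these settings were 2 other HD-ZIP IV, 4 HD-ZIP III, 15 epidermal layer, 10 trichome and root hair, 5 stomatal lineage and 5 DELLA genes. Calls in these lists changed with the settings. DESeq2 called 6 for RECs and 1 for SECs, and calls were 3 and 1 with no filter, 4 and 1 with the length trend removed, 5 and 1 with the replicate block, with or without the length trend, and 0 to 22 and 0 to 6 with 1 library left out. The same settings also changed the calls over all genes, which were 91 for RECs and 400 for SECs with the main settings. They were 763 and 1574 by DESeq2, 280 and 836 with no filter, and 854 and 1710 with the length trend removed. The block gave 526 and 1161, or 835 and 1687 with the length trend removed. Calls over all genes also moved widely with 1 library left out. Whether the lists exceed these backgrounds was not tested. The PDF2 share of the sum of PDF2 and ATML1, REC minus SEC, was −20.2 points. With 1 library left out this share difference ran from −26 to −14.5. Counts under 100 in 2 or more libraries limit ATML1, HDG2, HDG3, HDG5, HDG12, ANL2 and GL2.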
